A study of Mus musculus with 6 samples.

Results

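Fatty acid elongases and desaturases set the length and the number of double bonds of the acyl chains that a cell builds or takes up. The 10 genes described here are the elongases Elovl1, Elovl3, Elovl4, Elovl5, Elovl6 and Elovl7 and the desaturases Fads1, Fads2, Fads3 and Fads6. They were chosen by name, and each was matched by Ensembl identifier to 1 row of a table of 54385 genes. RNA abundance had been measured in brown adipose tissue in 3 libraries of ADCY3∆AT mice and 3 libraries of WT (wt/wt) mice, all C57BL/6N. ADCY3∆AT mice are described as a knockout of Adcy3-AT, a truncated form of adenylyl cyclase 3 whose expression the series title calls cold-induced. Mice of both genotypes were 20 weeks old, had eaten chow for their first 8 weeks and then HFD, a high-fat diet, for 12 weeks, and had spent 24 h at 4 °C. How the allele was made, the sex of the mice, and whether each library came from its own mouse are not given in the labels. The p-values therefore reflect only the spread among these libraries, which may be technical. The sample labels call the depot interscapular, whereas the design text calls it inguinal.

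Elongation takes place in the endoplasmic reticulum in a cycle of condensation, reduction, dehydration and a final reduction, and the ELOVL enzyme performs the condensation and decides which chains enter. The FADS enzymes of polyunsaturated chains insert double bonds on the carboxyl side of an existing one and take electrons through a fused cytochrome b5 domain. In mouse brown fat Elovl3 is a classic cold-induced gene, and Elovl6, which lengthens palmitate to stearate, is known as a target of the lipogenic factors SREBP-1c and ChREBP.

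Library totals ranged from 45676498 to 48502809 estimated counts in ADCY3∆AT and from 44826777 to 54933588 in WT. The Adcy3 row had 348.5, 341.9 and 505.6 CPM (counts scaled to library size with TMM factors) in ADCY3∆AT libraries, against 676.9, 727.8 and 651.9 CPM in WT libraries. Over all 18114 genes tested, edgeR's quasi-likelihood test with Benjamini-Hochberg adjustment over all of them called 1 row at an adjusted p of 0.05, a share of 0.00552%. That row is not in the annotation, shares its last digits with Adcy3, and was listed at 0 in the 3 ADCY3∆AT libraries and at 628.6, 552.3 and 477.4 CPM in WT libraries. All 10 brown adipocyte markers, Ucp1 included, were detected in every library. The summed level of those markers was 13300 to 13500 CPM in ADCY3∆AT and 14100 to 14200 CPM in WT. Most of that sum was Ucp1, at 9972 to 10240 CPM in ADCY3∆AT and 10330 to 10650 CPM in WT. For 15 skeletal muscle markers the sum was 225 to 576 CPM in ADCY3∆AT and 837 to 1800 CPM in WT. Most of the ADCY3∆AT sum was Mb, at 223.3, 362.6 and 359.2 CPM, and the groups of Mb overlapped. For 14 of the 15 the groups did not overlap, against 16.5% of all genes tested. The median log2 fold change (ADCY3∆AT over WT) of the 15 was -3.16. For 4 of 6 endothelial markers, Cdh5 among them (DESeq2 adjusted p = 0.0196), ADCY3∆AT lay above WT without overlap, against 7.68% of all genes tested. Kdr and Emcn overlapped, with log2 fold changes of -0.04 and -0.07. Of 6 genes listed as lymphocyte markers 3 were tested. For 2 of them, Ptprc (DESeq2 adjusted p = 0.0413) and Ms4a1 (0.652), ADCY3∆AT also lay above WT without overlap. The summed levels were 932 to 993 CPM in ADCY3∆AT and 860 to 929 CPM in WT for endothelial markers. For lymphocyte markers they were 16.2 to 23.1 CPM in ADCY3∆AT and 11.1 to 15.2 CPM in WT. Most of the lymphocyte sum was Ptprc, at 14.26 to 20.3 CPM in ADCY3∆AT and 9.856 to 13.39 CPM in WT. Cd3e, Cd3g and Cd79a had too few counts to be tested, and their groups overlapped. The part that any of these differences has in the results below was not tested. In bulk tissue, fewer cells of a type and less RNA per cell cannot be told apart.

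The elongases carry a conserved histidine box in the catalytic core. The coding bases of this box are shown for all 6 members because they let the family be read in groups. Each stretch holds 5 codons before the box, the 5 codons of the box in capitals and 5 codons after it, taken from the longest coding transcript in GENCODE M21 (GRCm38).
Elovl3: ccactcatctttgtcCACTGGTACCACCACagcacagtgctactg
Elovl6: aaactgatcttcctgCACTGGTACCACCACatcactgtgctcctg
Elovl4: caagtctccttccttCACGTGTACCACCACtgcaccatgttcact
Elovl5: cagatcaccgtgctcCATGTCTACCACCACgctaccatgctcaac
Elovl1: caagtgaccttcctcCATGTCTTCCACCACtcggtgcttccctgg
Elovl7: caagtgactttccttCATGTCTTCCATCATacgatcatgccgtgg
Elovl3 and Elovl6 matched at 15 of the 15 bases of the box and at 36 of the 45 bases of the stretch, the most of any pair. Elovl1 and Elovl7 followed with 35 of 45 bases. These counts are of bases and not of residues. The boxes of Elovl4 and Elovl5 encode the same residues with different bases, as do those of Elovl1 and Elovl7. Among the desaturases the coding sequences of Fads1, Fads2 and Fads3 held the heme-binding motif of cytochrome b5, shown in capitals between 5 codons on either side, and a scan of Fads6 found no match.
Fads1: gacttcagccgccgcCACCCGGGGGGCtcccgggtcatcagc
Fads2: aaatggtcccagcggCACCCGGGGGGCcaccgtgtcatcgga
Fads3: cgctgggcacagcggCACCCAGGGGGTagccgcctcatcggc
Fads1 (chr19:10182888-10196877, plus strand), Fads2 (chr19:10062765-10101746, minus strand) and Fads3 (chr19:10041569-10060110, plus strand) lie beside each other, whereas Fads6 (chr11:115279622-115297663, minus strand) lies elsewhere (GRCm38, GENCODE M21). Reads can tell most members apart. Of the 31-base words in their transcripts, Fads2 and Fads3 shared 24 with each other, 0.729% and 0.621% of their words, and Fads1 shared 0. Elovl3, Elovl4 and Elovl5 also shared 0 words with any other gene. Elovl6 shared 6.52% and Fads6 3.99% of their words with other genes, and Elovl7 0.776%. Elovl1 shared 0.816%, all of it with Cdc20.

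Levels of different genes were compared per length, as estimated counts per kilobase of exon, scaled to the same sum in every library. Elovl3 and Elovl6, whose boxes had the same bases, were the most abundant members. Elovl3, which lengthens saturated and monounsaturated very long chains, had a length-scaled level of 273 ± 49.7 and Elovl6 of 159 ± 9.73 (mean ± SD over the 6 libraries). Elovl3 thus stood above 99.6% of the genes in the table and Elovl6 above 99.4%. These shares include genes with few or no counts, since 18114 of the 54385 genes passed the filter on low counts. Elovl5, the elongase of polyunsaturated chains, followed at 39.3 ± 4.97, and its 6 libraries did not overlap those of Elovl6. Next came Fads3 at 7.08 ± 1.18, an enzyme that acts on sphingoid bases. Elovl1, which makes saturated very long chains for sphingolipids, had 3.58 ± 0.511, and Elovl4, known for the longest chains of skin, retina and brain, had 3.57 ± 0.625. Fads2, the delta-6 desaturase, had 2.91 ± 0.18 and Fads1, the delta-5 desaturase, 2.42 ± 0.404. Among Elovl1, Elovl4, Fads2 and Fads1, the levels of neighbours in the order overlapped, so neighbours cannot be ordered beyond their spread. Elovl1, at 3.17 or more, lay above every library of Fads2 (up to 3.07) and of Fads1 (up to 2.88). Elovl4, at 2.92 or more, lay above every library of Fads1. With the length of the longest coding transcript in place of the union of exons, Elovl1 (5.38) stood further above Elovl4 (3.6), and Fads1 (3.36) stood above Fads2 (3.04). Fads6, a desaturase whose substrate is not well known, was lower at 1.07 ± 0.184. Elovl7 closed the order at 0.0354 ± 0.0176, with 2, 2 and 5 estimated counts in ADCY3∆AT libraries and 7, 8.1 and 5 in WT libraries, and did not pass the filter on low counts.

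**Figure D1:**
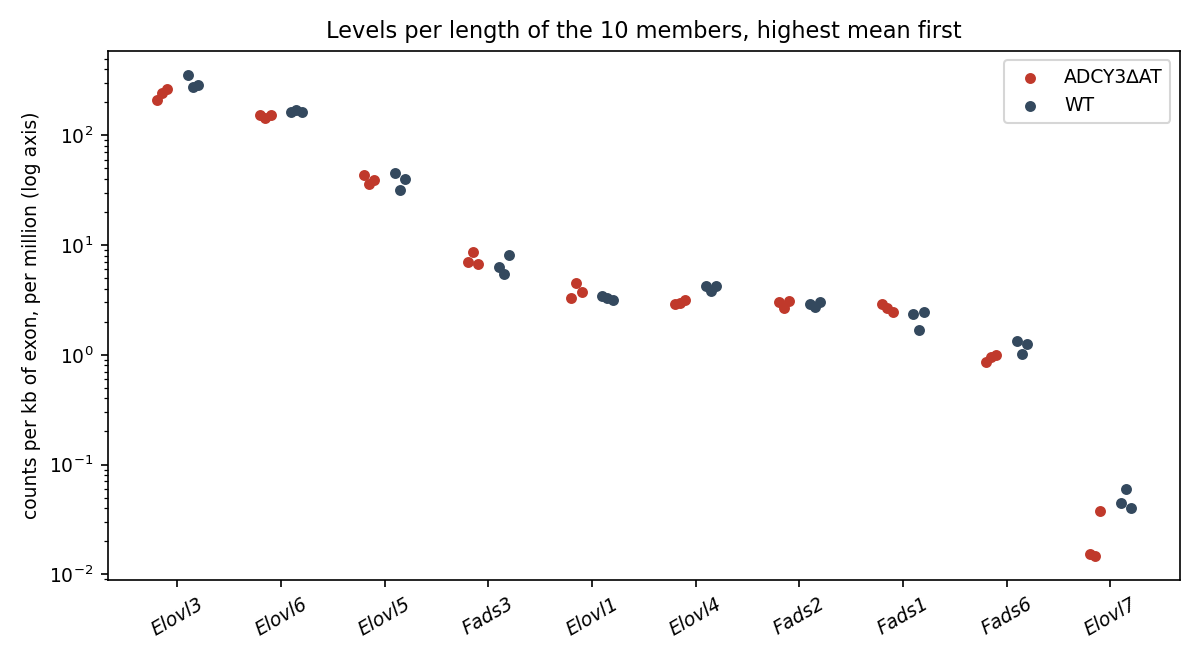
Length-scaled level (estimated counts per kilobase of exon, scaled to the same sum in every library, log axis) of the 10 members in each of 3 ADCY3∆AT (red) and 3 WT (dark) libraries, ordered by the mean over all 6. Elovl3 and Elovl6 lie at or above 143 in every library, Elovl5 between 31.6 and 45.4, and Elovl7 at or below 0.06.

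The summed length-scaled level of the 6 elongases was 411.7, 431.3 and 466.8 in ADCY3∆AT libraries, against 574.5, 488.3 and 498.6 in WT libraries. Every ADCY3∆AT library lay below every WT library. Elovl3 held 54.7 ± 3.61% of that sum in ADCY3∆AT and 59 ± 2.72% in WT, and Elovl6 held 34.6 ± 2.42% in ADCY3∆AT and 32.1 ± 3.2% in WT (SD, n = 3 each). The sum is thus mainly a reading of those 2 genes. The 4 desaturases summed to 13.85, 14.96 and 13.3 in ADCY3∆AT libraries, against 13.01, 10.89 and 14.84 in WT libraries, and the groups overlapped. Fads3 held 53.4 ± 4.16% of the desaturase sum in ADCY3∆AT and 51.2 ± 3.01% in WT, with Fads6 at 6.71 ± 0.703% in ADCY3∆AT and 9.39 ± 0.965% in WT.

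Of the 9 members tested, 0 passed in edgeR, against 0.00552% of all genes tested, and 0 passed in limma voom. At an unadjusted p under 0.05 there were 3, Elovl3, Elovl4 and Fads6, all lower in ADCY3∆AT, against 5.78% of all genes tested that were lower at that level and 11% in either direction. DESeq2 called 2 members lower, Elovl3 and Elovl4, against 0.737% of the 19270 genes that it tested, and 1.2% in either direction. The library groups did not overlap for 5 of the 9, Elovl3, Elovl4, Elovl6 and Fads6 lower and Fads1 higher in ADCY3∆AT, against 16.5% of all genes tested, 8.83% lower and 7.68% higher. Of the 9 log2 fold changes (ADCY3∆AT over WT throughout) 4 were positive and 5 negative, beside 50.9% positive and 49.1% negative over all genes tested, with a median of -0.01, beside a median of 0 over all genes tested.

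**Figure D2:**
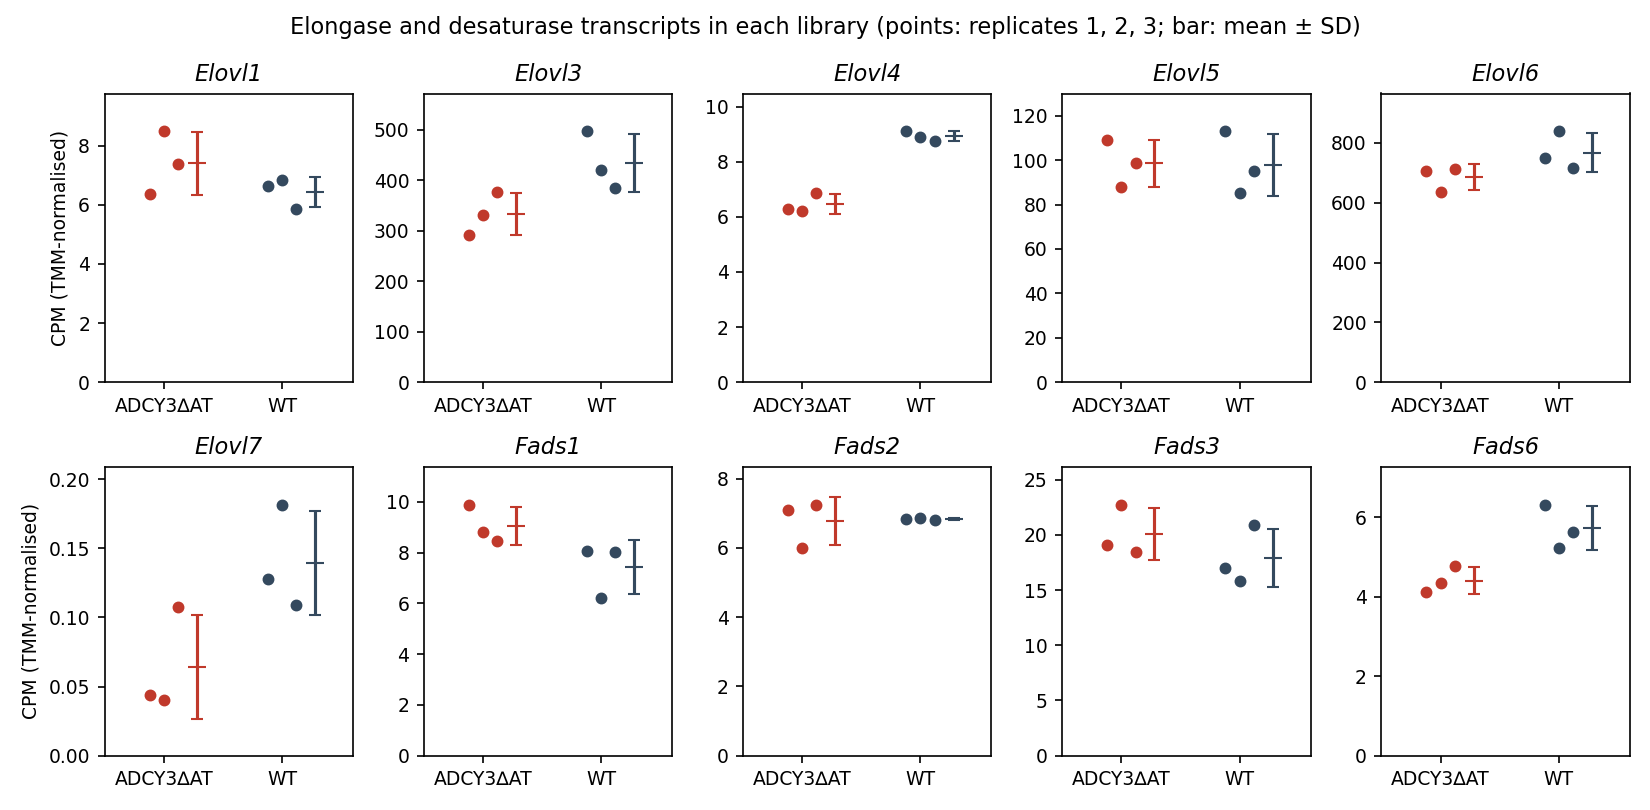
CPM (TMM-normalised) of each member in the ADCY3∆AT libraries (red, left) and WT libraries (dark, right). Points are replicates 1, 2 and 3 from left to right, with the mean ± SD beside them. In the panels of Elovl3, Elovl4, Elovl6 and Fads6 all 3 ADCY3∆AT points lie below all 3 WT points, and in that of Fads1 they lie above. The panel of Elovl7 rests on 2 to 8.1 estimated counts a library.

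Elovl3 (ENSMUSG00000038754, chr19:46131897-46135694, plus strand) had 292.5, 331.9 and 376.2 CPM in ADCY3∆AT libraries, against 497.7, 421.5 and 386 CPM in WT libraries. The highest ADCY3∆AT library, replicate 3, lay just under the lowest WT library, so the groups are apart by a narrow margin. The means were 333 ± 41.9 CPM in ADCY3∆AT and 435 ± 57.1 CPM in WT (SD, n = 3 each), a ratio of 0.767. The edgeR log2 fold change of -0.38 (95% interval -0.64 to -0.12) did not pass (adjusted p = 0.305), and it passed in DESeq2 (adjusted p = 0.0322). Leaving out 1 library at a time moved it between -0.48, without ADCY3∆AT replicate 3, and -0.27, without WT replicate 1. The median log2 fold change over the 10 brown adipocyte markers was -0.06, and for 4 of them the groups did not overlap, against 16.5% of all genes tested. These 4 did not share a direction, with Dio2 at -0.75, Ucp1 at -0.06 and Cox7a1 at -0.05, but Ppara at 0.32. Elovl3 is also known from the sebaceous glands of the skin. The summed level of 8 epidermal and sebaceous markers was 13.3 to 13.5 CPM in ADCY3∆AT and 10.9 to 14 CPM in WT. Most of it was Krt79, at 9.232 to 10.19 CPM in ADCY3∆AT and 8.049 to 10.08 CPM in WT. Scd3 and Krt10 were present in every library, and Krt5 was listed at 0 in all 6. Their part in the Elovl3 level was not tested.

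Elovl4 (ENSMUSG00000032262, chr9:83778692-83806277, minus strand) had the lowest p-value of the family. It had 6.298, 6.217 and 6.865 CPM in ADCY3∆AT libraries, against 9.112, 8.902 and 8.749 CPM in WT libraries. The spread within each genotype was small and the groups were well apart. The means were 6.46 ± 0.353 CPM in ADCY3∆AT and 8.92 ± 0.182 CPM in WT (SD, n = 3 each), a ratio of 0.724. The log2 fold change of -0.47 (95% interval -0.66 to -0.27) did not pass in edgeR (adjusted p = 0.158), where it ranked 60 of 18114 by p, and it passed in DESeq2 (adjusted p = 0.0275). Without 1 library at a time it stayed between -0.51 and -0.44. Elovl4 reached this on 287.8 to 319.5 estimated counts in ADCY3∆AT libraries and 392.4 to 500.4 in WT libraries, far fewer than Elovl3 with 13373.8 to 17478.8 in ADCY3∆AT libraries and 17645.4 to 27310.2 in WT libraries. Over the 15 muscle markers the median log2 fold change was -3.16, and their part in the Elovl4 difference was not tested.

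Fads6 (ENSMUSG00000044788) was the least abundant member tested. It had 4.111, 4.348 and 4.777 CPM in ADCY3∆AT libraries, against 6.323, 5.223 and 5.643 CPM in WT libraries. All 3 ADCY3∆AT libraries lay below WT, with 187.7 to 221.6 estimated counts in ADCY3∆AT libraries and 230 to 346.9 in WT libraries. The log2 fold change was -0.38 (95% interval -0.65 to -0.1), with an edgeR adjusted p of 0.323 and a DESeq2 adjusted p of 0.383. How reads from the 3.99% of shared words were assigned was not tested.

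**Figure D3:**
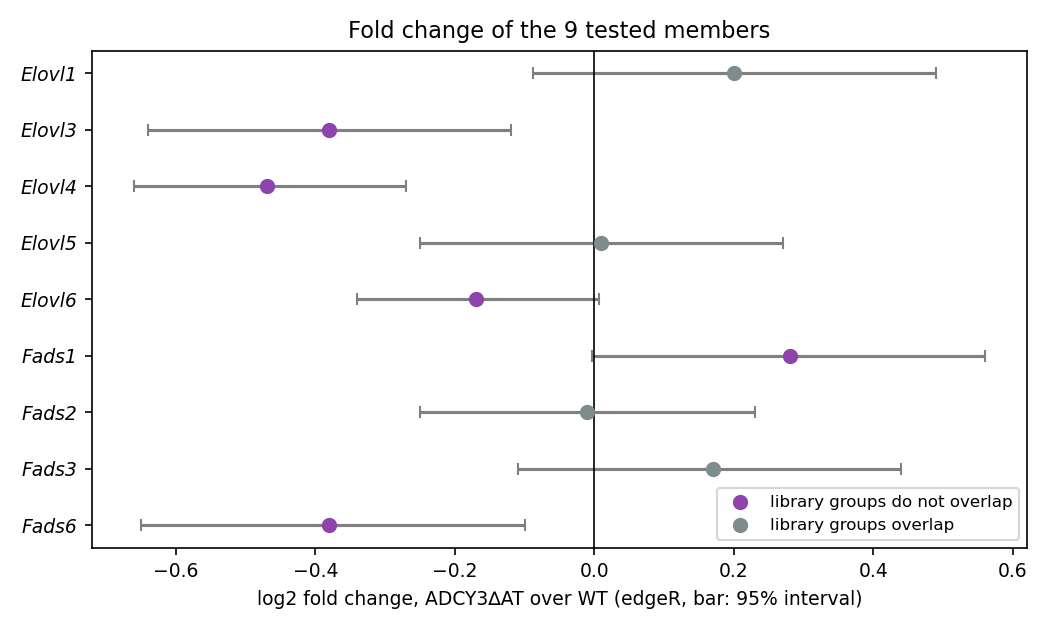
Log2 fold change (ADCY3∆AT over WT, x axis) of the 9 tested members with the 95% interval of the edgeR fit. Purple points mark members whose library groups do not overlap. The intervals of Elovl3, Elovl4 and Fads6 lie below 0, that of Elovl6 ends just above 0 at 0.0068, and that of Fads1 starts just below it at -0.0034, before any adjustment for the number of genes.

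Elovl6 (ENSMUSG00000041220, chr3:129532355-129638495, plus strand) makes stearate from palmitate and had the most estimated counts of the family. It had 705.2, 634.5 and 714.1 CPM in ADCY3∆AT libraries, against 747.8, 839.1 and 716 CPM in WT libraries. The groups did not overlap, by a narrow margin, since ADCY3∆AT replicate 3 and WT replicate 3 were nearly level. The log2 fold change was -0.17 (95% interval -0.34 to 0.0068, edgeR adjusted p = 0.474), and it was -0.0968 without WT replicate 2. Within libraries the length-scaled ratio of Elovl3 to Elovl6 was 1.35, 1.7 and 1.72 in ADCY3∆AT, against 2.17, 1.64 and 1.76 in WT, and these ranges overlapped. The ratio of Elovl3 to Elovl1 was 63.5, 54 and 70.4 in ADCY3∆AT libraries, against 104, 85.3 and 90.8 in WT libraries, the only 1 of 5 such ratios whose groups did not overlap. Elovl5 (ENSMUSG00000032349) had 109.1, 88.02 and 98.8 CPM in ADCY3∆AT libraries, against 113.1, 85.25 and 95.26 CPM in WT libraries. These ranges lie over each other almost fully, and the log2 fold change was 0.01 with a 95% interval of -0.25 to 0.27. Elovl1 (ENSMUSG00000006390) had 6.364, 8.493 and 7.381 CPM in ADCY3∆AT libraries, against 6.633, 6.835 and 5.862 CPM in WT libraries. Its groups overlapped, with a log2 fold change of 0.2 (95% interval -0.088 to 0.49, edgeR adjusted p = 0.606). Elovl1 shares 53 exon bases with Cdc20 on the opposite strand, and the sources used here do not say whether counting used strand.

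Fads1 and Fads2 work in turn on polyunsaturated chains. Fads1 (ENSMUSG00000010663) had 9.884, 8.798 and 8.436 CPM in ADCY3∆AT libraries, against 8.073, 6.2 and 8.028 CPM in WT libraries. It was the only tested member with all 3 ADCY3∆AT libraries above all 3 WT libraries, a pattern seen in 7.68% of all genes tested. The log2 fold change was 0.28 (95% interval -0.0034 to 0.56, edgeR adjusted p = 0.461, DESeq2 adjusted p = 0.624), and it was 0.17 without WT replicate 2. Fads2 (ENSMUSG00000024665) had 7.107, 5.994 and 7.252 CPM in ADCY3∆AT libraries, against 6.834, 6.858 and 6.803 CPM in WT libraries. WT lay inside the range of ADCY3∆AT, and the log2 fold change was -0.01 (95% interval -0.25 to 0.23). The ratio of Fads1 to Fads2 per length was 0.951, 1.01 and 0.798 in ADCY3∆AT libraries and 0.81, 0.619 and 0.809 in WT libraries, with overlapping groups. Fads3 (ENSMUSG00000024664) had 19.07, 22.74 and 18.44 CPM in ADCY3∆AT libraries, against 17.02, 15.83 and 20.89 CPM in WT libraries, also overlapping, with a log2 fold change of 0.17 (95% interval -0.11 to 0.44). Whether the differences of Fads1 and Fads6, or of any other pair of members, differ from each other was not tested.

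Promoter windows from RefSeq (GRCm38.p6, 250 bases before to 50 after the start) were found for 8 of the 10 members, all but Elovl3 and Fads1. They were searched on both strands for CCAAT (the NF-Y box), CACGTG (an E-box, bound by ChREBP and other factors), TGACG and TGACGTCA (the short and full cyclic AMP response element), TCACNCCAC (a sterol response element) and direct repeats of AGGTCA with 1 or 4 bases between them, bound by nuclear receptors. TGACG lies inside TGACGTCA. The 3 windows shown belong to both members with the largest differences that have a window, Elovl4 and Fads6, and to Elovl5, whose groups overlapped, and capitals mark matches, a CCAAT of the other strand reading ATTGG.
Elovl4, chr9:83806256-83806555, minus strand: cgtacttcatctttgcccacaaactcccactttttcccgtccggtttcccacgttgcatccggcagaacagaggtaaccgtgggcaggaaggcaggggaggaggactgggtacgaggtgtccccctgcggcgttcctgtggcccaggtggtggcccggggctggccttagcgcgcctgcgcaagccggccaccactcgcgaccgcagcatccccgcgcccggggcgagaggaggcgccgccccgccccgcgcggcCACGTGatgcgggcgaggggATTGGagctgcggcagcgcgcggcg
Fads6, chr11:115297513-115297812, minus strand: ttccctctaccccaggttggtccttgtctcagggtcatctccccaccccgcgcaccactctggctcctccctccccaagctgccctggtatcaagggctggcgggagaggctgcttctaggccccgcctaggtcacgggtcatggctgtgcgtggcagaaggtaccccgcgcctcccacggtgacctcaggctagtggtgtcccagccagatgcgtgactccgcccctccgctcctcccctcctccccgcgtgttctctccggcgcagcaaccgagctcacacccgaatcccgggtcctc
Elovl5, chr9:77917115-77917414, plus strand: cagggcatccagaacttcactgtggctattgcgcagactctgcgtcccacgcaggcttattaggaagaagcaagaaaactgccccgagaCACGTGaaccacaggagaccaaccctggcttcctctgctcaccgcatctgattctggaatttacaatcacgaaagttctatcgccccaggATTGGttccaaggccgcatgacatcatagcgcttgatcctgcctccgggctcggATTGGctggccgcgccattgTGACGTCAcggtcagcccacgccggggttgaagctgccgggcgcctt
Elovl4 held 1 CACGTG at bases 256 to 261 of its window, a word present in 7.15% of the 32851 promoters, and 1 CCAAT, present in 37.4%. Fads6 held none of the 7 motifs, nor did Elovl6 or Fads2. Elovl5 held the full TGACGTCA at bases 254 to 261, present in 1.79% of promoters, together with 1 CACGTG and 2 CCAAT. Elovl7 held 2 TGACG, present in 20.8% of promoters, Fads3 held 2 CCAAT and Elovl1 1. The first or only window of each of the 8 members held 14 (Elovl6) to 35 (Elovl4) CpG dinucleotides, beside a median of 7 over all promoters. A match describes letters and not binding.

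The other enzymes of the elongation cycle gave no call. Of 6 partners 0 passed in edgeR or DESeq2, with a median log2 fold change of -0.16 and 2 lower at an unadjusted p under 0.05, against 5.78% of all genes tested. Those 2 were dehydratases of the cycle. Hacd3 had 23.77, 23.55 and 21.97 CPM in ADCY3∆AT libraries, against 26.75, 27.36 and 27.87 CPM in WT libraries, without overlap (log2 fold change -0.24 ± 0.06, SE, edgeR adjusted p = 0.212). Hacd2 had 133 ± 19.3 CPM in ADCY3∆AT and 176 ± 28.9 CPM in WT (SD, n = 3 each, log2 fold change -0.41, edgeR adjusted p = 0.339). Hacd4, another dehydratase, had 4.44 ± 0.782 CPM in ADCY3∆AT and 3.54 ± 0.273 CPM in WT (log2 fold change 0.33, edgeR adjusted p = 0.509).

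Malonyl-CoA and palmitate, the substrates of elongation, come from the lipogenic pathway. Of its 8 genes tested 7 had a positive log2 fold change, with a median of 0.4, 0 passed in edgeR or DESeq2, and 6 were higher at an unadjusted p under 0.05, against 5.23% of all genes tested. The groups overlapped for all 8, and Acacb, the mitochondrial acetyl-CoA carboxylase, had a log2 fold change of -0.03. Fatty acid synthase, Fasn, had 5303, 4080 and 1661 CPM in ADCY3∆AT libraries, against 1736, 1410 and 1832 CPM in WT libraries. ATP citrate lyase, Acly, had 570.4, 438.7 and 172.8 CPM in ADCY3∆AT libraries, against 193.2, 167.3 and 206.6 CPM in WT libraries. Both were high in ADCY3∆AT replicates 1 and 2 and at the WT level in replicate 3. Thrsp, a lipogenic regulator, had the same layout with 551.9, 459.2 and 321.5 CPM in ADCY3∆AT libraries and 310.9 to 345.2 CPM in WT libraries. Without ADCY3∆AT replicate 3 these 3 passed in edgeR, at log2 fold changes of 1.5 for Fasn (adjusted p = 0.0134), 1.42 for Acly (0.0125) and 0.64 for Thrsp (0.0424), among 27 genes called higher and 39 lower of 18582. Leaving out the library at the WT level was bound to widen the difference, so these calls are no support. With any other library left out, Fasn had an edgeR adjusted p of 0.404 to 0.677. Without ADCY3∆AT replicate 1 the log2 fold changes were 0.79 for Fasn (edgeR adjusted p = 0.521), 0.69 for Acly (0.561) and 0.27 for Thrsp (0.602). Elovl6 did not share that layout, being lowest in ADCY3∆AT replicate 2 at 634.5 CPM, and Elovl3 was lowest in replicate 1, where Fasn was highest.

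**Figure D4:**
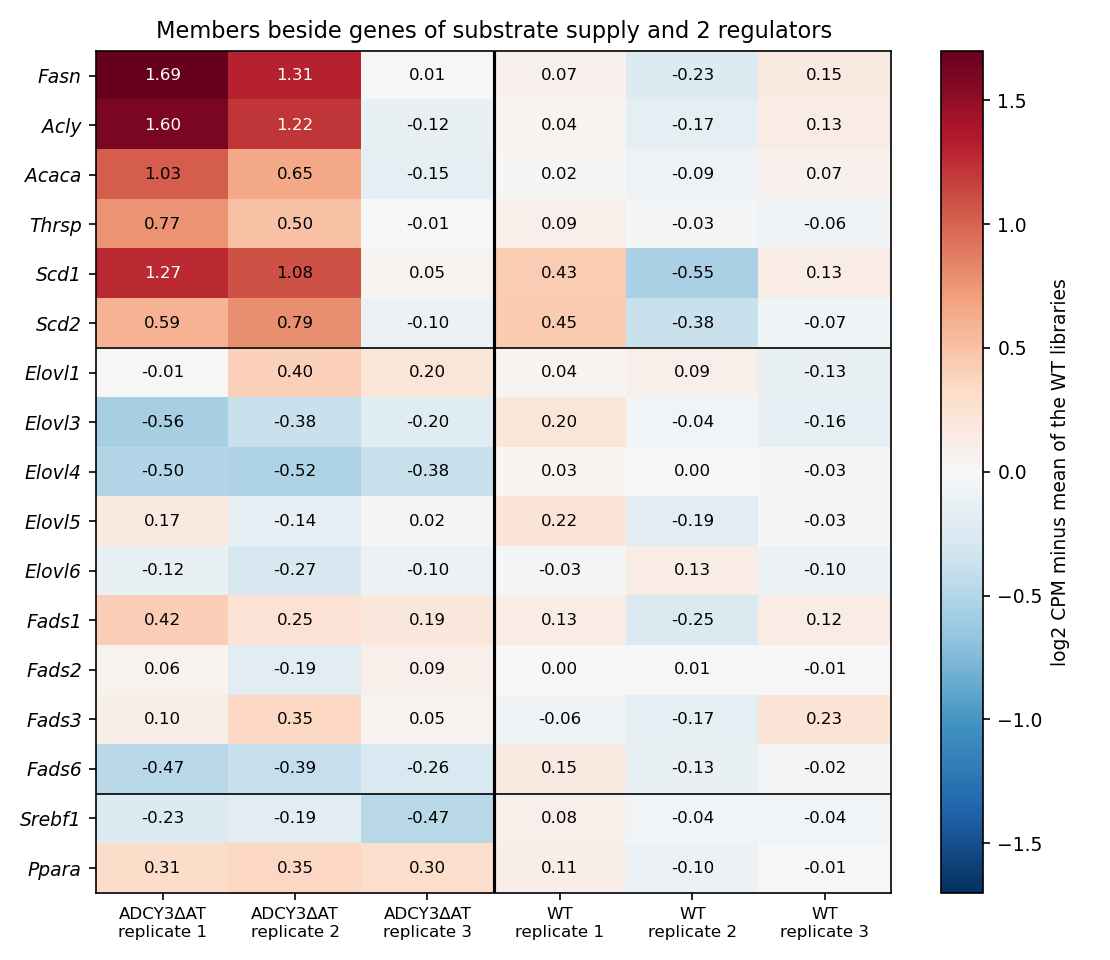
Log2 CPM of each gene minus its mean over the WT libraries, per library (columns, ADCY3∆AT left and WT right), with genes of substrate supply and the Scd desaturases on top, the 9 tested members in the middle and 2 regulators at the bottom. Fasn stands at 1.69, 1.31 and 0.01 in ADCY3∆AT libraries, while Elovl4 stands at -0.5, -0.52 and -0.38.

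Of the other desaturases and electron carriers, 9 of 10 were tested, 0 passed in edgeR or DESeq2, and 2 were higher at an unadjusted p under 0.05, against 5.23% of all genes tested, with a median log2 fold change of 0.09. Scd1, which makes monounsaturated from saturated chains, had 7235, 6369 and 3107 CPM in ADCY3∆AT libraries, against 4044, 2050 and 3290 CPM in WT libraries. It followed the layout of Fasn, with overlapping groups (log2 fold change 0.83 ± 0.32, SE, edgeR adjusted p = 0.408). The electron carriers pass electrons from NADH to the desaturases. Cyb5r3, cytochrome b5 reductase, had 57.8 ± 6.27 CPM in ADCY3∆AT and 50.2 ± 1.57 CPM in WT (SD, n = 3 each, edgeR adjusted p = 0.41), and cytochrome b5 itself, Cyb5a, had 72.5 ± 5.04 CPM in ADCY3∆AT and 82.1 ± 7.98 CPM in WT (edgeR adjusted p = 0.474).

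Regulators of these genes were tested as well. Of 13, 0 passed in edgeR, and DESeq2 called 1 higher and 1 lower, against 1.2% in either direction of the genes that it tested. An unadjusted p under 0.05 was found for 4 (1 higher, 3 lower), against 11% of all genes tested, and the groups did not overlap for 5, against 16.5%. Ppara, the nuclear receptor of fatty acid catabolism, had 334.7, 346.3 and 332.6 CPM in ADCY3∆AT libraries, against 291.7, 253 and 269.3 CPM in WT libraries, and was higher in all 3 (DESeq2 adjusted p = 0.00219, edgeR adjusted p = 0.158). Srebf1, which encodes SREBP-1, had 215.2, 222.3 and 182.4 CPM in ADCY3∆AT libraries, against 268.2, 245.8 and 245.7 CPM in WT libraries, and was lower in all 3 (DESeq2 adjusted p = 0.0487, edgeR adjusted p = 0.269). Mlx, the partner of ChREBP, had 21.8 ± 0.534 CPM in ADCY3∆AT and 25.3 ± 2.51 CPM in WT (SD, n = 3 each, edgeR adjusted p = 0.376).

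The genes whose profile over the 6 libraries was most like that of the leading elongases were found as those with the smallest root mean square difference of centred log2 CPM, among 6331 genes. For Elovl3 these were Wdr73 (0.029), Mapkapk2 (0.071) and Rnf144a (0.075). Wdr73 had 27.53, 31.98 and 36.78 CPM in ADCY3∆AT libraries, against 46.49, 39.24 and 37.58 CPM in WT libraries, the same order of the libraries as Elovl3 at a lower count. For Elovl6 they were Gcdh (0.023), Ndufb3 (0.026) and Hikeshi (0.027). With 6 libraries and so many genes, close profiles are easily found, and the values are a description.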

How the data were processed

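Per the labels, total RNA was made into paired-end libraries with the NEBNext Ultra II kit. The authors deposited estimated counts for each Ensembl gene. They appear unscaled: 31.6% of the values are not whole, and totals differ between libraries. The submitters' processing notes name Salmon, StringTie, edgeR and GRCm38, without roles or versions, and strand use is not stated. Splitting reads among transcripts can shift estimated counts between overlapping genes.

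Symbols came from GENCODE M21 (54131 of 54385 rows). All 6 value columns were matched to samples. Counts were rounded, genes filtered with filterByExpr (18114 left), scaled with TMM and tested with edgeR 4.0.16 (R 4.3.3), quasi-likelihood F test, genotype only, Benjamini-Hochberg over all genes, threshold 0.05. Standard errors are those implied by F. The fit was tested on simulated data. Log2 CPM used a prior count of 2. DESeq2 1.42.0 and limma 3.58.1 (voom) were alternatives, with other scalings and filters, each library left out, and the replicate number as a block. No 2 libraries agreed within sampling noise (chi-square per degree of freedom 24.1 to 71.5). By this measure ADCY3∆AT replicate 3 was nearer to WT replicates 1, 2 and 3 (35.6, 24.1 and 26) than to ADCY3∆AT replicates 1 and 2 (59.6 and 36.4). Pairs of WT libraries had 43.3, 29.5 and 24.1, and ADCY3∆AT replicates 1 and 2 had 27.3. What sets ADCY3∆AT replicate 3 apart was not tested.

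Every member is named. Of each pathway list the 3 tested genes with the lowest p-values are named. For Elovl3 and Elovl6 the 3 most similar genes above a mean log2 CPM of 4 are named. The members and lists were chosen with earlier results of these data known. The heat map genes and promoters shown were picked after their values had been seen.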

Additional observations from a re-analysis of the deposited data

How the results depend on the processing

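Of the members, 0 passed in either direction in edgeR with RLE factors, library totals alone, no low-count filter, at least 1 CPM in 3 libraries, the replicate block or any library left out, and in limma voom; DESeq2 called 2 lower. Over these 13 settings the log2 fold change of Elovl3 ran from -0.48 to -0.27, Elovl4 from -0.51 to -0.44, Fads6 from -0.44 to -0.3, Elovl6 from -0.21 to -0.0968, Fads1 from 0.17 to 0.35, Elovl1 from 0.0929 to 0.3 and Fads3 from 0.0666 to 0.29, with no turn of direction. Elovl1 and Fads3 were lowest without ADCY3∆AT replicate 2. Elovl5 turned to -0.0685 without ADCY3∆AT replicate 1, and leaving out 1 library moved it between -0.0793 and 0.13. Fads2 turned to 0.0043 with library totals alone and ran from -0.0616 to 0.0718 with 1 library left out. With 1 library left out, values near 0 also turned for Cers4 (-0.074 to 0.0941), Cers5 (-0.0672 to 0.0265) and Acsl5 (-0.14 to 2e-04). The cause was not tested.

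Over all genes edgeR called 0 higher and 1 lower. DESeq2 called 89 higher and 142 lower of 19270 tested, and limma voom 1 higher and 1 lower. With no low-count filter, a setting that tests more genes of low count, edgeR called 59 higher and 155 lower of 30714 tested. Genes of high count also passed there, such as Fasn (edgeR adjusted p = 0.0485) and Ppara (0.0317). Elovl4 (0.0545) and Elovl3 (0.091) did not. With 1 library left out the calls ran from 0 to 27 higher and from 1 to 39 lower, both highest without ADCY3∆AT replicate 3. With the replicate block 3 were lower and 0 higher. The deviations of same-numbered libraries correlated at -0.09, -0.13 and -0.09, and those of other pairs at 0 to 0.09. These values show no pairing by replicate number, but with 3 libraries per genotype they cannot exclude it. Elovl7, at 2 to 8.1 estimated counts, is too shallow for a fold.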

Other observations

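Ceramide synthases join very long chains to sphingoid bases. Of 6 in the list 4 were tested and 0 had an unadjusted p under 0.05 in edgeR or passed in DESeq2. Cers2, the synthase that takes the longest common chains, had 87.2 ± 1.66 CPM in ADCY3∆AT and 87.9 ± 1.9 CPM in WT (SD, n = 3 each), and was looked up after its values had been seen. Cers6 had a log2 fold change of 0.41 ± 0.3 (SE), which was 0.15 without WT replicate 2 and 0.65 without WT replicate 1. The value was -0.03 ± 0.07 for Cers5 and 0.02 ± 0.1 for Cers4. Of 10 peroxisomal genes 0 passed in edgeR or DESeq2 and 1 had an unadjusted p under 0.05, a share near the 11% of all genes tested. That gene was Slc27a2, an acyl-CoA synthetase of very long chains, with 250, 266.5 and 376.7 CPM in ADCY3∆AT libraries, against 407.2, 437 and 350.8 CPM in WT libraries. ADCY3∆AT replicate 3 lay within the WT range. Abcd2, a peroxisomal transporter, had 62.6 ± 24.6 CPM in ADCY3∆AT and 47.5 ± 4.34 CPM in WT, and the thiolase Acaa1a had 62.7 ± 5.18 CPM in ADCY3∆AT and 58.6 ± 3.38 CPM in WT.

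Of 11 genes that activate long chains or remodel membranes with them, 0 passed in edgeR or DESeq2 and 1 had an unadjusted p under 0.05, against 11% of all genes. That gene was Acsl4, a synthetase that prefers arachidonate, with 30.57, 31.66 and 30.09 CPM in ADCY3∆AT libraries, against 34.79, 34.9 and 33.77 CPM in WT libraries. The groups did not overlap (log2 fold change -0.16 ± 0.05, SE, edgeR adjusted p = 0.307). Acsl3 had a log2 fold change of 0.12 ± 0.09 and Acsl5 of -0.09 ± 0.08.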
